A study of Mus musculus with 15 samples.

Results

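The Wnt ligands, their Frizzled receptors and the secreted proteins that bind or modulate them were examined in whole aortas of mice given aldosterone and salt. The members were all gene symbols in the count data of the form *Wnt*, *Fzd*, *Sfrp*, *Dkk* or *Rspo* followed by a number (and *Dkkl1*), plus *Frzb* and *Wif1*, 44 of 24982 symbols in all. They comprised 19 Wnt ligands, 10 Frizzled receptors, 5 genes of the secreted Frizzled-related family (*Sfrp1*, *Sfrp2*, *Sfrp4*, *Sfrp5* and *Frzb*), 5 Dickkopf genes, 4 R-spondins and *Wif1*. Fold changes were computed for the 32 members with 10 or more counts in at least 5 of the 15 libraries. The mice were male wild-type C57BL/6 animals (C57BL/6J in the study's methods) aged 10 months, and each library came from 1 aorta. All 15 mice were given aldosterone at 200 µg/kg/d from an osmotic minipump and drank water containing 0.9% NaCl plus 0.2% KCl (Aldo-salt) over 7 days, begun after 2 weeks of recovery from surgery. The 5 control mice had a sham operation, 5 mice were orchiectomized, which removes the gonadal source of androgen, and 5 were orchiectomized and carried a pellet of dihydrotestosterone (DHT), an androgen that binds the androgen receptor directly. No group without Aldo-salt was analysed here, so each difference is one between groups set up to differ in androgen status, all under Aldo-salt.

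Wnt ligands are lipid-modified secreted proteins that bind Frizzled receptors together with the co-receptors Lrp5 and Lrp6, which stabilizes β-catenin and activates TCF/LEF transcription factors, or together with Ror2, Ryk or Ptk7, which signal without β-catenin to polarity and calcium pathways. Secreted Frizzled-related proteins, Frzb and Wif1 bind Wnt ligands outside the cell. Dickkopf proteins such as Dkk1 and Dkk2 bind the Lrp co-receptors, while Dkk3 is a divergent member. R-spondins keep Frizzled receptors at the surface through Lgr receptors and the ubiquitin ligases Znrf3 and Rnf43. In the arterial wall these genes are used by smooth muscle cells, fibroblasts and endothelial cells, so a bulk aorta holds several sources of each transcript. In such samples, fewer cells of a type and less RNA per cell cannot be told apart.

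Libraries held between 8268957 and 13816864 gene-assigned reads. 1 orchiectomized aorta, replicate 2, stood apart from the other 14. Its summed level of 8 lung and airway genes was 12151 CPM (reads of a gene scaled to a common library size, with TMM factors), against 34.7 to 122 CPM in the other 4 orchiectomized aortas (highest in replicate 4), 19.3 to 29 CPM in the control aortas and 19 to 27.6 CPM in the DHT aortas. All 5 orchiectomized aortas were thus above all others in this sum. Of the 5 lung and airway genes tested, 5 rose in orchiectomized against control aortas (1 without replicate 2), and 5 fell in DHT against orchiectomized aortas (2 without replicate 2). Its levels of *Bpifa1* and *Sftpc*, a secreted airway protein and a surfactant protein of alveolar cells, were 4673 and 1977 CPM, and at most 60.1 and 3.92 CPM elsewhere. Smooth muscle genes, which define the labelled tissue, were detected in every library, with summed levels of 15426 to 22155 CPM in the control aortas, 12051 to 22139 CPM in the orchiectomized aortas and 21546 to 26646 CPM in the DHT aortas, lowest in orchiectomized replicate 2. Fold changes that rest on the orchiectomized group are given below with all libraries and then without that library.

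Levels between genes were compared as CPM per kb of exon. *Dkk3*, a divergent Dickkopf protein, and *Sfrp2*, a secreted Wnt-binding protein, were the most abundant members in the control aortas, at 142 ± 27.9 and 116 ± 19.6 CPM per kb (mean ± SD, n = 5), and differed from each other by less than these SDs added together. *Fzd1*, *Fzd7* and *Fzd2* followed at 40.8 ± 8.24, 40.5 ± 9.55 and 34.5 ± 7.79 CPM per kb, within 1 SD of one another. *Sfrp1* and *Sfrp4* measured 28.5 ± 5.94 and 27.7 ± 10.4 CPM per kb. The most abundant Wnt ligand was *Wnt16*, at 15.9 ± 5.73 CPM per kb, followed by *Wnt9a* at 7.51 ± 1.29 and *Wnt5a*, a ligand best known for signaling through Ror2, at 4.24 ± 0.673 CPM per kb. *Wif1* was at 12 ± 4.74 CPM per kb. R-spondins were led by *Rspo1* at 4.5 ± 0.538 CPM per kb, and *Rspo3* and *Rspo4* measured 2.21 ± 0.637 and 2.04 ± 2.56 CPM per kb. Summed over the 11 tested Wnt ligands, the level was 32.1 to 46.9 CPM per kb in the control aortas, 37.1 to 49.4 in the orchiectomized aortas and 26.8 to 37.6 in the DHT aortas, so the groups overlapped in this sum. The 9 tested Frizzled receptors summed to 112 to 184, 97.1 to 190.1 and 119 to 171 CPM per kb in the same order, also overlapping.

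**Figure D1:**
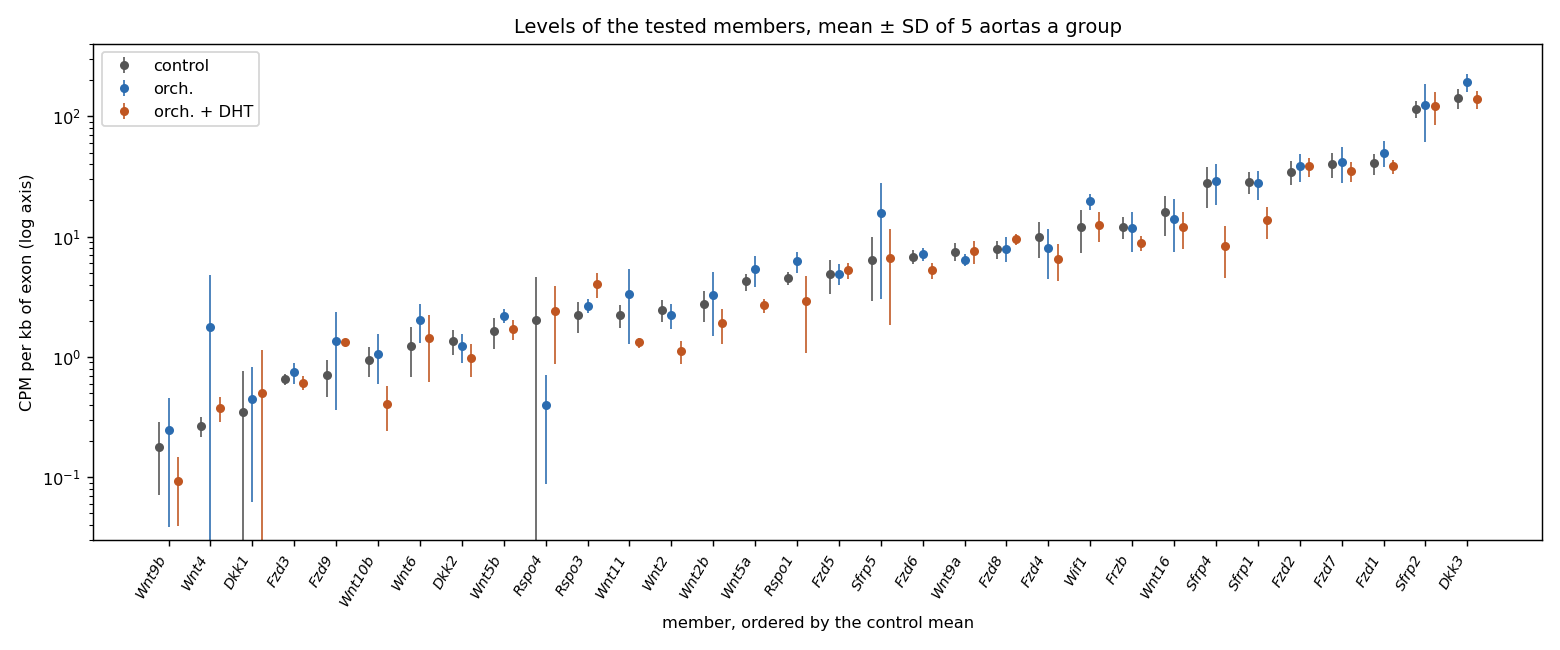
Level of each of the 32 tested members in CPM per kb of exon (log axis), ordered by the control mean. Points are means and bars SDs of 5 aortas a group (orch., orchiectomized), and a bar that reaches the lower edge extends below the plotted range. *Dkk3* and *Sfrp2* lie above 100 CPM per kb in every group, and the DHT mean of *Sfrp4* (8.38) lies well below the other 2 means.

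Androgen replacement was accompanied by lower levels of several ligands and secreted modulators. Between the orchiectomized aortas with and without DHT, 8 of the 32 tested members fell and 0 rose at an unadjusted P value under 0.01 in edgeR's quasi-likelihood test, and 5 of the 8 had an adjusted P value under 0.05. The 8 were the ligands *Wnt2*, *Wnt5a*, *Wnt10b* and *Wnt11*, the receptor *Fzd6*, the secreted modulators *Sfrp1* and *Sfrp4*, and the R-spondin *Rspo1*. That is 25% of the tested members, where 7.35% of all 14191 genes tested fell and 9.79% passed in either direction. At the adjusted threshold 3.89% of all genes fell. At an unadjusted P value under 0.05, 13 members were lower and 2, *Rspo3* and *Rspo4*, were higher, where 21.2% of all genes passed. DESeq2 called 9 lower and 2 higher at 0.01, and 12.3% of all genes. The median log2 fold change of the members was -0.39, and that of all genes -0.02. CPM values of the 2 groups did not overlap for 8 members (*Wnt2*, *Wnt5a*, *Wnt11*, *Fzd6*, *Sfrp1*, *Dkk3*, *Rspo3* and *Rspo4*), and for 6.43% of all genes.

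Against the control aortas, which kept their own androgen, the DHT aortas gave a similar list, and the comparison shares the DHT aortas with the previous one. At the same threshold 6 members were lower (*Wnt2*, *Wnt5a*, *Wnt10b*, *Fzd6*, *Sfrp1* and *Sfrp4*) and 1, *Rspo3*, was higher. The background was 2.01% of all genes lower and 3.54% in either direction. None of the 7 had an adjusted P value under 0.05 in edgeR, although 9 members had an unadjusted P value under 0.05 (11.8% of all genes) and DESeq2 also called 7 at 0.01 (4.96% of all genes). Of the 7 calls, those of *Fzd6* and *Wnt10b* were lost in 15 and 7 of the 23 alternative settings tried. The groups did not overlap for 8 members (*Wnt2*, *Wnt5a*, *Wnt10b*, *Wnt11*, *Fzd9*, *Sfrp1*, *Sfrp4* and *Rspo3*), against 3.56% of all genes. The median log2 fold change was -0.09 for the members and -0.0027 for all genes.

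For orchiectomy alone the share of members called was close to that of all genes. Against the control group 1 of 32 members, *Wnt4*, rose, and 0 fell at an unadjusted P value under 0.01 in edgeR, where 3.23% of all genes passed. At 0.05, 5 members were higher and 1, *Rspo4*, was lower, where 12% of all genes passed, and no member and no other gene reached an adjusted P value under 0.05 (the smallest over all genes was 0.0962). DESeq2 called 1 member, which was lower, and 4.51% of all genes. The median log2 fold change of the members was 0.18 and that of all genes 0.04 (0.27 and 0.01 without orchiectomized replicate 2). Of the 32 estimates 24 were above 0 and 8 below, where 43.1% of all genes were below 0. The *Wnt4* call rested on orchiectomized replicate 2, and without that library 0 of 32 members passed, where 1.78% of all genes did. *Wif1* was the 1 member whose groups did not overlap in this comparison, against 1.5% of all genes.

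**Figure D2:**
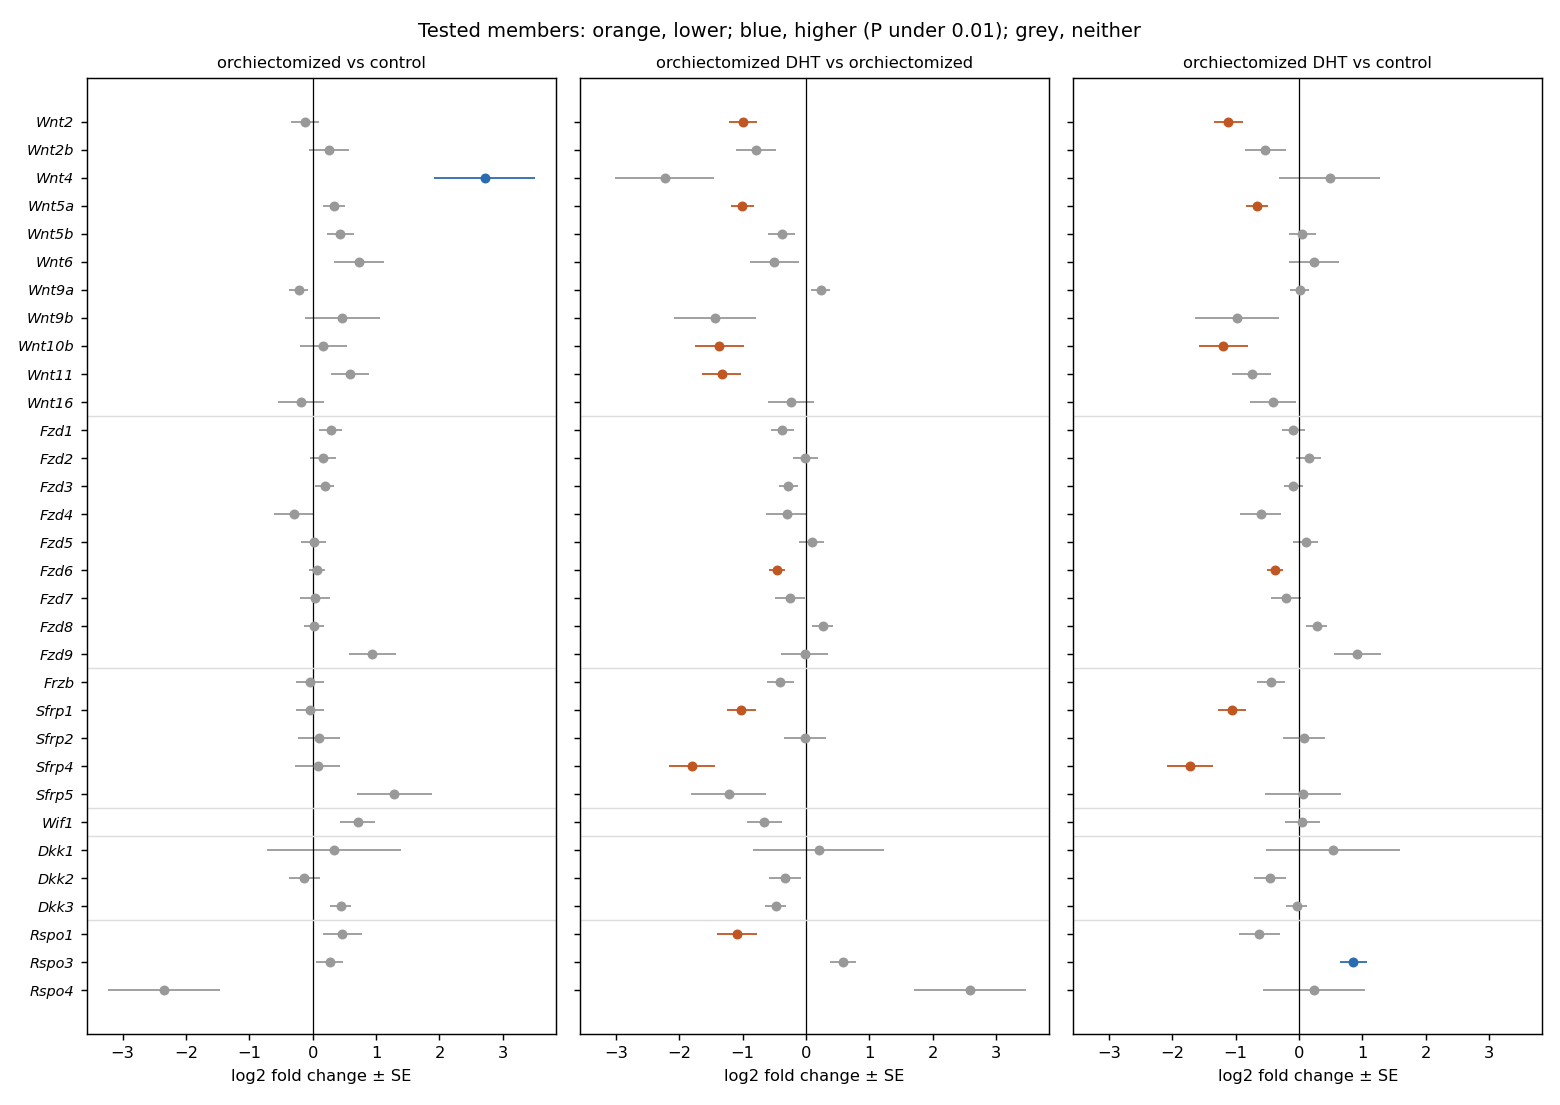
Log2 fold change (x axis) of each tested member (y axis, grouped by family) in the 3 comparisons, 1 panel each. Points are edgeR estimates from all 15 aortas and bars are standard errors. In the middle panel 8 members are marked as lower and none as higher, in the left panel *Wnt4* alone is marked.

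*Wnt5a* lies at chr14:28504750-28527448 of GRCm38, the assembly also called mm10. It measured 35.6, 24.4, 32, 36.8 and 36.9 CPM in the 5 control aortas, 44, 31.9, 60.7, 42.1 and 31.2 CPM in the orchiectomized aortas and 19.3, 21.3, 22.6, 24.2 and 17.4 CPM in the DHT aortas. Every DHT value was below every value of the other groups. DHT against orchiectomy gave a log2 fold change of -1.0 ± 0.18 (adjusted P = 0.0101), a level 0.499 times that of the orchiectomized aortas, and DHT against control gave -0.66 ± 0.18 (adjusted P = 0.167). Orchiectomy against control gave 0.34 ± 0.17 (adjusted P = 0.446), which missed the threshold (0.41 without orchiectomized replicate 2). With orchiectomized replicate 2 left out, the fold change between the orchiectomized groups was -1.07 ± 0.18 (adjusted P = 0.0108). The gene model overlaps *Gm2670* on the other strand, and whether counting used strand is not given in the sources used here.

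*Wnt2* (chr6:17988940-18030585), a ligand of the β-catenin pathway, was expressed at a low level. Its values were 3.99, 5.15, 6.68, 6.65 and 5.11 CPM in the controls, 3.77, 5.83, 6.72, 4.19 and 4.72 CPM after orchiectomy and 2.91, 3.15, 1.8, 2.59 and 2.17 CPM with DHT. The 5 DHT aortas were again the 5 lowest of the 15. The log2 fold change was -0.99 ± 0.23 (adjusted P = 0.0249) against the orchiectomized and -1.12 ± 0.23 (adjusted P = 0.0515) against the control aortas, while orchiectomy against control was -0.13 ± 0.22 (adjusted P = 0.851). Raw counts were 14 to 35 in the DHT libraries and 44 to 94 in the control libraries. Leaving out orchiectomized replicate 2 gave -0.92 ± 0.24 (adjusted P = 0.0523) for the first value, which kept the call and left the adjusted P value above 0.05, and -0.19 for the last.

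*Wnt11* (chr7:98835112-98855195), a ligand known mainly for polarity signaling, had 12.1, 8.24, 9.07, 6.72 and 9.85 CPM in the control, 9.91, 28.4, 11.2, 12.7 and 6.68 CPM in the orchiectomized and 5.22, 6.22, 5.0, 5.8 and 5.07 CPM in the DHT aortas. The DHT values were the lowest and lay close together, and orchiectomized replicate 2 was the highest of all libraries. DHT against orchiectomy gave -1.33 ± 0.31 (adjusted P = 0.0266) with that library and -0.88 ± 0.20 (adjusted P = 0.0361) without it. Against the controls the change of -0.75 ± 0.31 (adjusted P = 0.371) missed the threshold with all libraries, and it passed at -0.75 ± 0.19 (adjusted P = 0.102) without orchiectomized replicate 2. *Gm8398* overlaps the model on the other strand.

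*Wnt10b* (chr15:98770712-98778150), a ligand known for holding back fat cell formation, measured 2.45, 2.25, 3.23, 3.89 and 4.29 CPM in the controls, 3.12, 4.77, 3.84, 5.22 and 1.14 CPM after orchiectomy and 1.97, 1.53, 0.769, 1.85 and 0.828 CPM with DHT. Orchiectomized replicate 5 fell within the DHT range, and the other 4 orchiectomized aortas lay above it. The log2 fold change was -1.37 ± 0.39 (adjusted P = 0.0554) against orchiectomy and -1.2 ± 0.39 (adjusted P = 0.258) against control. Raw counts were 6 to 23 in the DHT libraries. The first value was -1.24 ± 0.40 (adjusted P = 0.111) without orchiectomized replicate 2, which kept the call. The call against orchiectomy was lost in 4 of 23 alternative settings (without orchiectomized replicate 4, DHT replicate 3 or DHT replicate 5, and without orchiectomized replicates 2 and 4 together), and the call against control in 7.

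*Wnt4* (chr4:137277489-137299726) had 1.18, 1.03, 0.939, 0.991 and 1.46 CPM in the controls, 1.08, 30, 1.92, 1.99 and 2.04 CPM after orchiectomy and 1.2, 1.35, 1.54, 1.61 and 2.17 CPM with DHT. 1 aorta, orchiectomized replicate 2, was far above the other 14, which overlapped. Orchiectomy against control gave 2.71 ± 0.79 (adjusted P = 0.277) with it and 0.65 ± 0.26 (adjusted P = 0.653) without it. DHT against orchiectomy was -2.23 ± 0.78 (adjusted P = 0.11) with it and -0.16 ± 0.26 (adjusted P = 0.758) without it. The lung and airway genes were high in the same library, and their part in this result was not tested.

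The other tested ligands did not pass in any comparison. *Wnt16* measured 69.5 ± 25, 61.2 ± 28.4 and 52 ± 17.6 CPM (mean ± SD) in the control, orchiectomized and DHT aortas, and *Wnt9a* 25 ± 4.3, 21.4 ± 2.34 and 25.2 ± 5.38 CPM. Their counts ranged from 185 to 1262 and from 171 to 420. *Wnt9a* was the 1 ligand of 11 whose estimate was above 0 with DHT against orchiectomy, at 0.23 ± 0.15 (adjusted P = 0.399). *Wnt2b*, a close relative of *Wnt2*, gave -0.79 ± 0.32 (adjusted P = 0.169) and *Wnt9b* -1.44 ± 0.65 (adjusted P = 0.214), both below the unadjusted 0.05 only. Estimates for *Wnt5b*, *Wnt6* and *Wnt16* were -0.38, -0.50 and -0.23, each within 2 standard errors of 0. Without orchiectomized replicate 2 the values were 0.24 for *Wnt9a*, -0.90 for *Wnt2b*, -1.6 for *Wnt9b*, -0.29 for *Wnt5b*, -0.28 for *Wnt6* and -0.46 for *Wnt16*.

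Among the secreted Frizzled-related genes, *Sfrp4* (chr13:19623104-19632994) had the largest change with DHT among the members called in either comparison with DHT. It measured 60.2, 138, 112, 174 and 94.7 CPM in the controls, 106, 52, 163, 159.5 and 129.7 CPM after orchiectomy and 55.4, 49.2, 28.1, 20 and 22.6 CPM with DHT. All 5 DHT values were below all control values, and orchiectomized replicate 2 was within the DHT range. The log2 fold change was -1.8 ± 0.36 (adjusted P = 0.0169) against orchiectomy, a level 0.288 times as high, and -1.72 ± 0.36 (adjusted P = 0.0649) against control. These were -1.98 ± 0.33 (adjusted P = 0.0108) and -1.72 ± 0.32 (adjusted P = 0.0274) without orchiectomized replicate 2. Orchiectomy itself gave 0.07 ± 0.35 (adjusted P = 0.95), and 0.26 without that library.

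*Sfrp1* (chr8:23411502-23449632) had 108, 98.7, 118, 165 and 132 CPM in the controls, 127, 84.2, 172, 118 and 103 CPM after orchiectomy and 78.6, 78.5, 51.3, 51.7 and 38.5 CPM with DHT. The DHT aortas were the 5 lowest of the 15, and the orchiectomized range covered the control range. Its log2 fold change was -1.02 ± 0.22 (adjusted P = 0.0221) against orchiectomy and -1.06 ± 0.22 (adjusted P = 0.0649) against control. Both calls held without orchiectomized replicate 2, at -1.11 ± 0.22 (adjusted P = 0.0215) and -1.05 ± 0.21 (adjusted P = 0.037). *Sfrp2*, the most abundant gene of the family, did not move with DHT beyond its error, at -0.01 ± 0.33 (adjusted P = 0.988) with all libraries and -0.22 ± 0.24 (adjusted P = 0.631) without orchiectomized replicate 2, and measured 249 ± 42.1, 266 ± 134 and 264 ± 82.1 CPM in the 3 groups (960 to 4429 counts). *Frzb*, also called Sfrp3, gave -0.40 ± 0.22 (adjusted P = 0.306), and -0.54 ± 0.18 (adjusted P = 0.111) without orchiectomized replicate 2. *Sfrp5* varied most, from 3.85 CPM in a DHT aorta to 65.6 CPM in orchiectomized replicate 2, and passed in no comparison. Its group means were 12.2 ± 6.63, 29.6 ± 23.8 and 12.7 ± 9.15 CPM (37 to 742 counts), and its value after orchiectomy was 1.29 ± 0.59 (adjusted P = 0.411) with all libraries and 0.77 ± 0.56 (adjusted P = 0.773) without orchiectomized replicate 2.

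**Figure D3:**
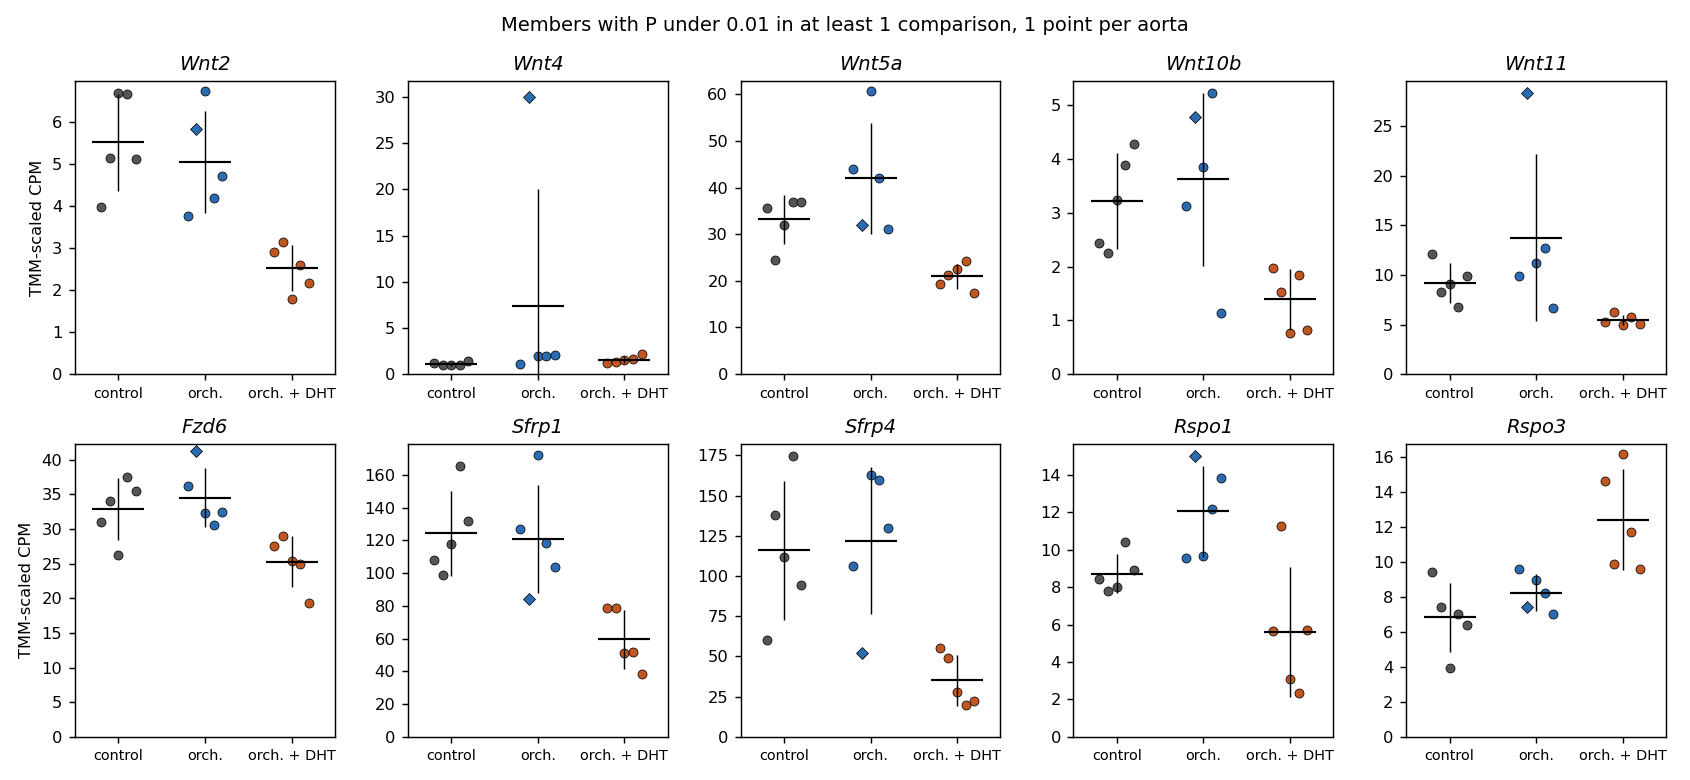
TMM-scaled CPM (y axis, from 0) of the 10 members with an unadjusted P value under 0.01 in at least 1 comparison, 1 point per aorta. Horizontal lines are means and vertical lines SDs of 5 aortas (orch., orchiectomized), and the diamond is orchiectomized replicate 2. The DHT points of *Wnt2*, *Wnt5a*, *Wnt11* and *Sfrp1* lie below all others, and *Wnt4* is high in 1 aorta alone.

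Of the 9 tested Frizzled receptors, *Fzd6* (chr15:39006034-39038188), a receptor of polarity signaling, changed. It measured 31, 34.1, 26.2, 37.5 and 35.5 CPM in the controls, 36.2, 41.2, 32.2, 30.5 and 32.5 CPM after orchiectomy and 27.5, 29, 25.4, 24.9 and 19.3 CPM with DHT. All DHT values were below all orchiectomized values, by a small margin. The log2 fold change was -0.45 ± 0.13 (adjusted P = 0.0553) against orchiectomy and -0.38 ± 0.13 (adjusted P = 0.278) against control, and the first became -0.36 ± 0.13 (adjusted P = 0.133) without orchiectomized replicate 2, past the threshold no longer. This call was also lost without DHT replicate 5, and the call against control was lost in 15 of 23 alternative settings. *Gm26704* overlaps the gene on the other strand. The abundant receptors *Fzd7*, *Fzd1* and *Fzd2* gave -0.25 ± 0.24 (adjusted P = 0.587), -0.37 ± 0.18 (adjusted P = 0.254) and -0.01 ± 0.20 (adjusted P = 0.987) between the orchiectomized groups, and -0.41, -0.50 and -0.13 without orchiectomized replicate 2. Group means in the control, orchiectomized and DHT aortas were 183 ± 43.3, 188 ± 61.5 and 159 ± 29.2 CPM for *Fzd7*, 171 ± 34.6, 209 ± 50.7 and 161 ± 21.9 CPM for *Fzd1* and 126 ± 28.5, 141 ± 37.4 and 140.3 ± 24.8 CPM for *Fzd2*, with counts of 1010 to 3122, 1160 to 3098 and 902 to 2338 per library. Of these *Fzd1* passed without that library, at -0.50 ± 0.14 (adjusted P = 0.0768). *Fzd9* was higher in every DHT aorta than in every control aorta, from 2.82 to 3.33 against 0.912 to 2.19 CPM, with a log2 difference of 0.92 ± 0.38 (adjusted P = 0.37) that passed without orchiectomized replicate 2, at 0.92 ± 0.23 (adjusted P = 0.0912). After orchiectomy the receptor with the smallest P value was also *Fzd9*, at 0.94 ± 0.37 (adjusted P = 0.361), where orchiectomized replicate 2 held 7.16 CPM, and 0.36 ± 0.24 (adjusted P = 0.753) without that library.

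Among the R-spondins 1 gene passed in each comparison with DHT, *Rspo1* against orchiectomy and *Rspo3* against control. *Rspo3* (chr10:29452416-29535867), which binds Lgr4 and is known for its role in vessel growth, measured 9.42, 7.4, 3.96, 7.01 and 6.39 CPM in the controls, 9.58, 7.43, 9.0, 8.24 and 7.0 CPM after orchiectomy and 14.6, 9.91, 16.2, 11.7 and 9.62 CPM with DHT. All 5 DHT aortas were above all 10 others, the lowest of them by a narrow margin. It was higher with DHT than in the controls by 0.86 ± 0.21 (adjusted P = 0.118), and the difference from the orchiectomized aortas of 0.59 ± 0.21 (adjusted P = 0.116) missed the threshold (0.57 ± 0.22 (adjusted P = 0.175) without orchiectomized replicate 2). *Gm48159* overlaps it on the other strand.

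*Rspo1* (chr4:124986430-125009099) measured 8.43, 7.77, 8.03, 10.4 and 8.94 CPM in the controls, 9.58, 15, 9.69, 12.2 and 13.8 CPM after orchiectomy and 5.65, 11.3, 3.08, 2.35 and 5.69 CPM with DHT. DHT replicate 2 lay among the orchiectomized values and the other 4 DHT aortas lay below all of them. DHT against orchiectomy gave -1.09 ± 0.32 (adjusted P = 0.0613), and -0.98 ± 0.33 (adjusted P = 0.121) without orchiectomized replicate 2, which ended the call. It was also lost without DHT replicate 3 and with only the groups compared. *Rspo4* ranged from 0.175 to 2.03 CPM after orchiectomy and from 2.07 to 10.9 CPM with DHT, without overlap, while the controls spread from 0.496 to 14.7 CPM. Its log2 fold changes were -2.35 ± 0.88 (adjusted P = 0.34) after orchiectomy and 2.59 ± 0.89 (adjusted P = 0.104) with DHT, and these were -2.85 ± 0.97 (adjusted P = 0.585) and 3.1 ± 0.98 (adjusted P = 0.101) without orchiectomized replicate 2, where the second passed.

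*Wif1* and the Dickkopf genes passed in no comparison with all 15 aortas. *Wif1*, a secreted Wnt-binding inhibitor, had 37.1, 39.1, 10.5, 32.7 and 26.2 CPM in the controls, 57.3, 41, 52.2, 39.5 and 48.3 CPM after orchiectomy and 29.2, 32.1, 42.1, 29.4 and 18.4 CPM with DHT. Every orchiectomized aorta was above every control aorta, and the log2 fold changes were 0.71 ± 0.28 (adjusted P = 0.357) after orchiectomy and -0.66 ± 0.28 (adjusted P = 0.188) with DHT (0.74 and -0.69 without orchiectomized replicate 2). *Dkk3* gave 0.44 ± 0.16 (adjusted P = 0.34) and -0.48 ± 0.16 (adjusted P = 0.107) in the same order, with means of 479 ± 93.8, 648 ± 115 and 466 ± 77.7 CPM in the control, orchiectomized and DHT aortas, and passed against DHT without orchiectomized replicate 2, at -0.52 ± 0.17 (adjusted P = 0.105) (with 0.48 after orchiectomy). *Dkk2* and *Dkk1*, inhibitors that bind the Lrp co-receptors, gave -0.33 ± 0.25 (adjusted P = 0.488) and 0.20 ± 1.04 (adjusted P = 0.94), or -0.16 and 0.04 without that library, and *Dkk2* gave -0.46 ± 0.25 (adjusted P = 0.493) against control with means of 4.99 ± 1.16, 4.54 ± 1.22 and 3.63 ± 1.11 CPM (21 to 73 counts). *Dkk1* had 0 to 25, 0 to 22 and 0 to 37 counts in the 3 groups, and its standard error was larger than its estimate in each comparison.

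**Figure D4:**
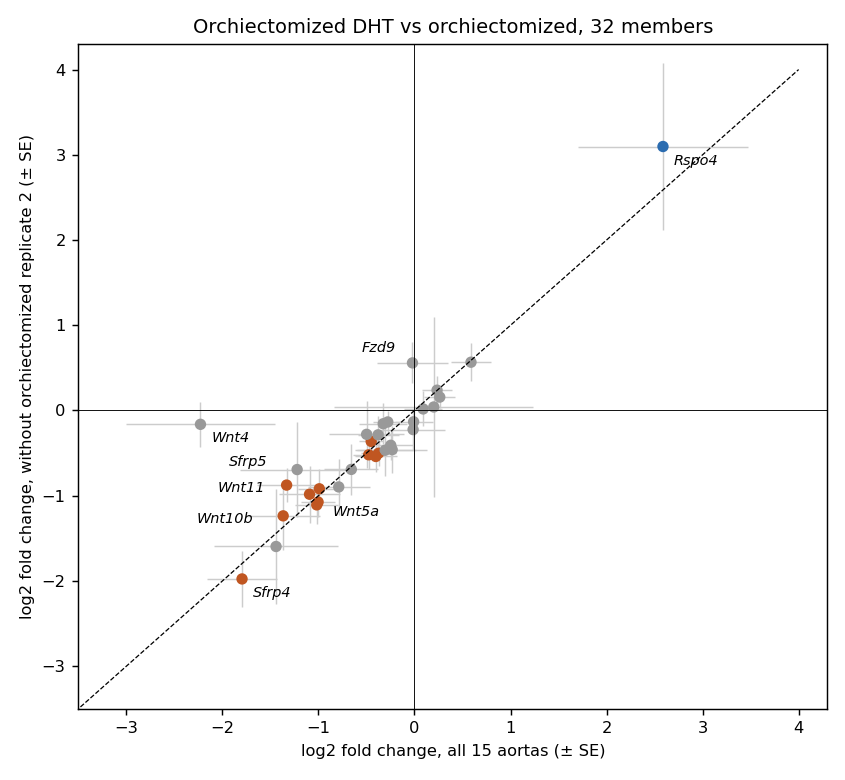
Log2 fold change with DHT against orchiectomy of the 32 tested members with all 15 aortas (x axis) and without orchiectomized replicate 2 (y axis), with standard errors. Orange (lower) and blue (higher) points passed 0.01 in at least 1 of the fits, grey points in neither, and the dashed line marks equal values. *Wnt4* moves from -2.23 to -0.16 and most other members lie near the line.

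Without orchiectomized replicate 2, 9 members fell and 1, *Rspo4*, rose with DHT against orchiectomy, where 5.22% of all genes fell. *Fzd6* and *Rspo1* were no longer among them, and *Fzd1*, *Frzb* and *Dkk3* were added. The 4 with an adjusted P value under 0.05 were *Wnt5a*, *Wnt11*, *Sfrp1* and *Sfrp4*, where 1.92% of all genes fell at that threshold. Against the controls 7 members fell and 2 rose in that fit, where 4.79% of all genes passed. Of the 7 that fell, 3 (*Wnt2*, *Sfrp1* and *Sfrp4*) had an adjusted P value under 0.05, where 0.433% of all genes fell.

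The 12 members below the count filter were *Wnt1*, *Wnt3*, *Wnt3a*, *Wnt7a*, *Wnt7b*, *Wnt8a*, *Wnt8b*, *Wnt10a*, *Fzd10*, *Dkk4*, *Dkkl1* and *Rspo2*. *Wnt8a* had no count in any library, which allows up to 3 counts per library, and *Wnt3* and *Dkk4* had 1 count each over all 15. *Rspo2* had 1 to 11 counts per library, *Dkkl1* 0 to 5, *Wnt1* 0 to 8 and *Wnt8b* 0 to 2. *Fzd10* had 0 to 4 counts in the control, 2 to 9 in the orchiectomized and 0 to 1 in the DHT libraries. Orchiectomized replicate 2 held 166 of the 199 counts of *Wnt7b*, 45 of the 52 of *Wnt7a*, all 44 of *Wnt3a* and 18 of the 56 of *Wnt10a*. *Wnt7b* is a ligand known from lung epithelium, and in the other 14 libraries it had 0 to 5 counts.

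Neighbouring ligand genes differed in level. The annotation places 4 pairs of members within 100 kb of each other, and in each pair 1 gene passed the count filter and 1 did not. *Wnt10b* (470 counts in all) lies 11.7 kb from *Wnt1* (34 counts) on chromosome 15, and *Wnt6* (564 counts) lies 6.19 kb from *Wnt10a* (56 counts) on chromosome 1. On chromosome 11 *Wnt9a* (3923 counts) lies 16.2 kb from *Wnt3a* (44 counts), and *Wnt9b* (134 counts) lies 24.3 kb from *Wnt3* (1 count).

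Promoter windows from RefSeq (GRCm38.p6, 250 bases before to 50 after the start) were searched because 8 members fell with DHT against orchiectomy. Of the 10 members called in any comparison, *Rspo1*, *Wnt2*, *Wnt4*, *Wnt10b* and *Wnt11* had a window, 6 windows in all, and *Sfrp1*, *Sfrp4*, *Wnt5a*, *Fzd6* and *Rspo3* had none. The androgen receptor half-site AGAACA (on either strand, as TGTTCT) was in 0 of the 6, and in 19.0% of all 32851 windows. Half-sites facing each other across 3 bases were in 0 of the 6 and in 3 of all windows. The TCF/LEF motif CTTTGAT or, on the other strand, ATCAAAG was in 1 of the 6, a *Wnt11* window, and in 3.73% of all. Such matches are letters only. The *Wnt11* window, on the plus strand at chr7:98834862-98835161, is shown because it holds the match, in capitals, and the *Wnt2* window, on the minus strand at chr6:18030396-18030695, because *Wnt2* fell in both comparisons with DHT and held neither motif.
Wnt11: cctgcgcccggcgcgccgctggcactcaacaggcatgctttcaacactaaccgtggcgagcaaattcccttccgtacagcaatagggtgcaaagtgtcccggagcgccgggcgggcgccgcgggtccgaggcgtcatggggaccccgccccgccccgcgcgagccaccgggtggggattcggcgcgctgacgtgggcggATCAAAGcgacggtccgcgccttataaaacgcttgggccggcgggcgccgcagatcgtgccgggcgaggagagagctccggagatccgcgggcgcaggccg
Wnt2: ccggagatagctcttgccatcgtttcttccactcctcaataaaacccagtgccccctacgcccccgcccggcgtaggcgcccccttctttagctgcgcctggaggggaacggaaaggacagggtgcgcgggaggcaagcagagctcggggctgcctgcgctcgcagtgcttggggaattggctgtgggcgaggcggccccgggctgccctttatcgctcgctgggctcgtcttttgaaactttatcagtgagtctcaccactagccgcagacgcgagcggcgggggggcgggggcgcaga

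The rest of the pathway was described through 5 lists of genes. With DHT against orchiectomy 7.35% of all genes fell and 9.79% passed in either direction. Against control 3.54% passed, and after orchiectomy 3.23%. Of the 10 tested co-receptors and receptor turnover genes (13 listed), 2 fell with DHT against orchiectomy and 0 rose, with a median log2 fold change of -0.03. They were *Ror2*, a receptor of Wnt5a, at -1.96 ± 0.44 (adjusted P = 0.0249), and *Ptk7*, a polarity co-receptor, at -3.18 ± 0.76 (adjusted P = 0.0306). Both still passed at 0.01 without orchiectomized replicate 2, at -1.49 (adjusted P = 0.053) and -1.43 (adjusted P = 0.0307). *Ptk7* rose after orchiectomy at 2.39 ± 0.72 (adjusted P = 0.28), a call lost without that library at 0.64 (adjusted P = 0.671). Of the 8 tested secretion and extracellular genes (10 listed), 2 fell in both comparisons with DHT. *Cthrc1*, a secreted protein that binds Wnt5a and Ror2 complexes, changed by -2.54 ± 0.42 (adjusted P = 0.00782) against orchiectomy and -1.82 ± 0.42 (adjusted P = 0.0924) against control, and *Tpbg*, a membrane protein that modulates Lrp6, by -1.41 ± 0.29 (adjusted P = 0.0188) and -1.3 ± 0.29 (adjusted P = 0.0901). In the fit without orchiectomized replicate 2 the first values were -2.22 (adjusted P = 0.011) and -1.25 (adjusted P = 0.0379).

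All 27 intracellular transducers were tested, and with DHT against orchiectomy 2 rose and 2 fell, where 9.79% of all genes passed. *Dvl1* and *Dvl3*, which relay the signal from Frizzled receptors, rose with DHT against orchiectomy by 0.32 ± 0.09 (adjusted P = 0.0489) and 0.44 ± 0.11 (adjusted P = 0.0373), and *Prickle1* and *Celsr1*, polarity genes, fell at -0.52 ± 0.15 (adjusted P = 0.0561) and -2.0 ± 0.53 (adjusted P = 0.0429). *Dvl3* was lower after orchiectomy than in the controls at -0.36 ± 0.11 (adjusted P = 0.282). The DHT values were 0.28 (adjusted P = 0.101), 0.40 (adjusted P = 0.0784), -0.42 (adjusted P = 0.137) and -1.01 (adjusted P = 0.0847) without orchiectomized replicate 2, and *Prickle1* and the *Dvl3* difference from control (-0.32 (adjusted P = 0.611)) lost their calls. The β-catenin transcription factors differed among themselves. *Tcf7l2* and *Tcf7l1* were higher with DHT than in the controls at 0.51 ± 0.12 (adjusted P = 0.0924) and 0.38 ± 0.12 (adjusted P = 0.25), and *Lef1* missed the count filter. *Tcf7*, which T cells also express, rose after orchiectomy at 2.33 ± 0.55 (adjusted P = 0.235) and fell with DHT at -3.07 ± 0.58 (adjusted P = 0.0131), and both calls held without orchiectomized replicate 2 at 2.32 (adjusted P = 0.441) and -3.07 (adjusted P = 0.0221). Of 8 T cell genes 7 were tested, and 6 of them rose after orchiectomy (2 without orchiectomized replicate 2) and 7 fell with DHT against orchiectomy (5 without it), with summed levels of 4.87 to 14.7, 7.32 to 64.9 and 3.59 to 6.85 CPM in the control, orchiectomized and DHT aortas. Their part in the *Tcf7* result was not tested.

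Among the 13 tested feedback and target genes (20 listed), *Axin2*, the target most used as a readout of β-catenin signaling, did not pass in any comparison. It measured 19 ± 6.05, 15 ± 4.72 and 17.4 ± 2.6 CPM in the control, orchiectomized and DHT aortas, and DHT against orchiectomy gave 0.22 ± 0.24 (adjusted P = 0.647), or 0.40 (adjusted P = 0.341) without orchiectomized replicate 2. *Nkd1*, a feedback inhibitor, was higher with DHT against orchiectomy (0.47 ± 0.14 (adjusted P = 0.0661)) and against control (0.67 ± 0.14 (adjusted P = 0.0649)). *Ccnd1* and *Myc*, which are also targets of many other pathways, fell with DHT against orchiectomy at -0.90 ± 0.24 (adjusted P = 0.0441) and -0.96 ± 0.24 (adjusted P = 0.0362). *Ccnd1* was also lower than in the controls, at -0.74 ± 0.24 (adjusted P = 0.258). With *Tcf7*, which stands in this list too, 3 of the 13 fell and 1 rose with DHT against orchiectomy. Over all genes 7.35% fell and 9.79% passed in either direction. All of the calls in this list held without orchiectomized replicate 2, with DHT values of 0.49 (adjusted P = 0.095), -0.69 (adjusted P = 0.11) and -0.84 (adjusted P = 0.0761) for *Nkd1*, *Ccnd1* and *Myc*.

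Markers of other cell types moved in the same comparisons. Over all genes, 9.79% passed with DHT against orchiectomy, 3.54% against control and 3.23% after orchiectomy. Of 10 mesothelial genes, which mark the lining of body cavities, 10 fell with DHT against orchiectomy (9 without orchiectomized replicate 2) and 7 fell against control (9 without it), while 2 rose after orchiectomy (0 without it). Their summed level was 59.6 to 139 CPM in the control aortas, 88.1 to 138 CPM in 4 orchiectomized aortas, 882 CPM in orchiectomized replicate 2 and 23.1 to 47 CPM in the DHT aortas, so the DHT aortas lay below all others. *Upk3b*, a defining mesothelial gene, was at 3.33 to 8.92 CPM with DHT and at 16 CPM or more in the other groups, and *Bnc1* was at 0 in at least 1 DHT aorta. Of 9 fibroblast genes, 3 fell with DHT against orchiectomy and 2 against control, with summed levels of 4537 to 6528, 4589 to 7027 and 3291 to 5141 CPM that overlapped. Of 9 endothelial genes 3 fell in each of these comparisons. Their summed levels were 848 to 1266, 957 to 1581 and 733 to 925 CPM in the control, orchiectomized and DHT aortas. Every DHT aorta was thus below every orchiectomized aorta in this sum, while the DHT and control aortas overlapped. Of 9 smooth muscle genes 0 passed in either comparison with DHT (with medians of 0.42 and 0.39 on the log2 scale), where 1 and 3 were higher without orchiectomized replicate 2. B cell genes (5 of 6 tested higher after orchiectomy with or without orchiectomized replicate 2, 6 lower with DHT against orchiectomy and 5 without that library) and skeletal muscle genes (2 of 9 lower after orchiectomy and 5 higher with DHT against orchiectomy, 3 and 7 without that library) also moved. Of 4 tested neutrophil genes 3 rose after orchiectomy (2 without orchiectomized replicate 2), 3 fell with DHT against orchiectomy (0 without it) and 2 were higher with DHT than in the controls, with summed levels of 2.43 to 4.32, 8.11 to 32.8 and 3.78 to 13.8 CPM. Of 8 macrophage genes 3 fell with DHT against orchiectomy (1 without that library), with summed levels of 398 to 1038, 687 to 1507 and 372 to 729 CPM. Adipocyte, brown fat, Schwann and lymph node stroma genes passed in at most 1 gene per list and comparison. The part of these cell types in the lower levels of *Wnt2*, *Wnt5a*, *Wnt10b*, *Wnt11*, *Sfrp1*, *Sfrp4* and *Rspo1* was not tested.

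**Figure D5:**
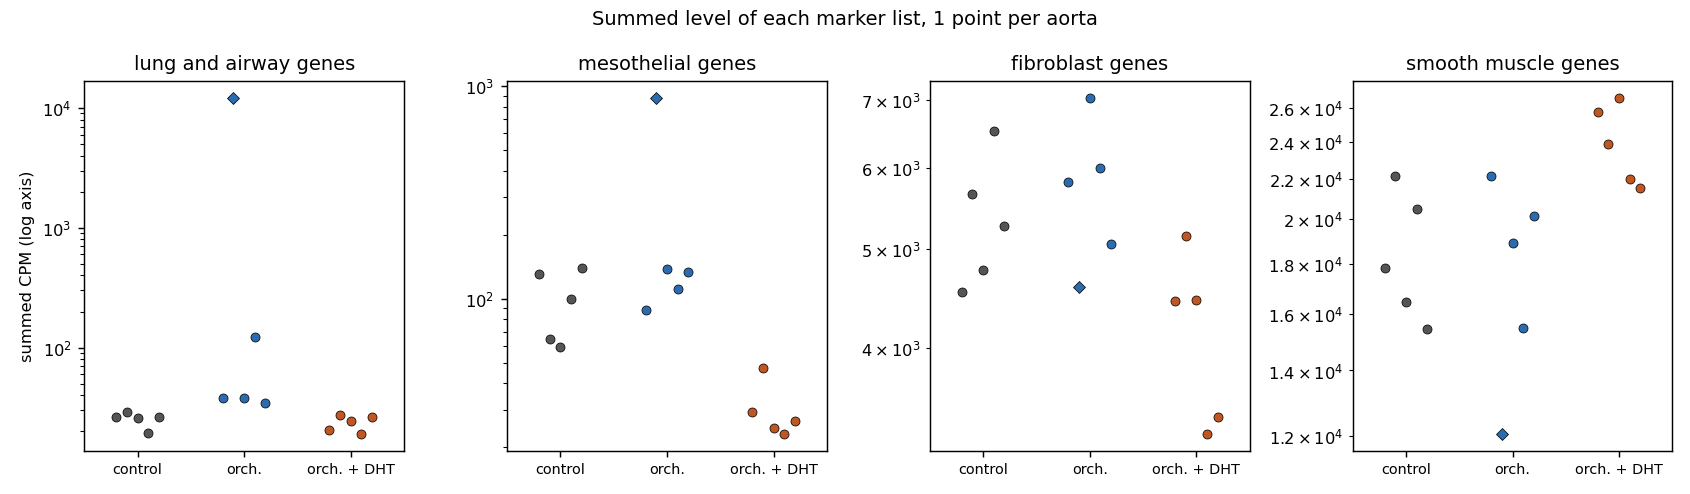
Summed CPM (log axis) of 8 lung and airway, 10 mesothelial, 9 fibroblast and 9 smooth muscle genes in each aorta by group (orch., orchiectomized), with orchiectomized replicate 2 as a diamond. Mesothelial sums of the 5 DHT aortas, 23.1 to 47 CPM, lie below all others, and lung and airway sums of the 5 orchiectomized aortas lie above all others, with replicate 2 far above the rest.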

How the data were processed

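RNA-Seq counts of whole aortas were analyzed for 15 mice, 5 per group, with 1 library per mouse. Per library the authors deposited 1 table of unnormalized counts by gene symbol, made from poly(A)-enriched libraries. The submitters' processing notes name mm10, STAR, Cufflinks and DESeq2 without their roles or versions, and the counting program and annotation are not given in the sources used here. Groups and replicate numbers came from the labels. Rows that are no gene, which hold reads outside genes (6.26% to 14.4% of the counted reads) or on several genes, were left out.

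Genes with 10 or more counts in at least 5 libraries were TMM-normalized and tested in R 4.3.3 with edgeR 4.0.16 (quasi-likelihood F test, two-sided, 3 groups, all 15 libraries). Calls used the study's threshold, an unadjusted P value under 0.01, with Benjamini-Hochberg adjustment over 14191 genes, and each printed P value is an adjusted one. Standard errors are the log2 fold change divided by the square root of F. The method was tested on simulated data. Alternatives were RLE size factors, library totals, other count filters, only the groups compared, a replicate block, DESeq2 1.42.0, the adjusted threshold and leaving out each library. Gene positions and exon lengths came from GENCODE M21 (GRCm38). Libraries of a group were not duplicates (chi-square per gene of at least 11.6).

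Members called in any comparison were named with every library's value, as were the 3 most abundant members and the smallest P value of each family in group form. The members and gene lists were chosen with earlier results of these data known, and the lung and airway list after the data were seen. Where a member passed at 0.01, the text says so, since its adjusted P value can lie above 0.05.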

Additional observations from a re-analysis of the deposited data

Results flagged for a closer look

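Each tested member was checked in each group for 1 aorta far from the other 4, by Dixon's ratio of the gap to the range. 8 of 96 checks were past the 95% critical value, where chance gives about 1 in 20 for normally distributed values. All 8 were high values, and the rate over all genes was not computed, so the number of checks past the value is given as a description.

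In 4 of them the aorta was orchiectomized replicate 2, the library with lung and airway transcripts. *Wnt4* was 30 CPM against 1.08 to 2.04 CPM in the other orchiectomized aortas, *Wnt11* was 28.4 CPM against 6.68 to 12.7 CPM, *Fzd9* was 7.16 CPM against 1.83 to 2.28 CPM and *Fzd3* was 12.8 CPM against 7.97 to 9.0 CPM. Another orchiectomized aorta, replicate 3, stood out for *Wnt2b*, at 26.9 CPM against 8.93 to 14 CPM. Control replicate 3 stood out for 3 members, with *Sfrp5* at 23.7 CPM against 7.65 to 11.8 CPM, *Wnt6* at 4.8 CPM against 1.92 to 2.43 CPM and *Dkk1* at 2.61 CPM against 0 to 0.637 CPM in the other controls.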

How the results depend on the processing

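Over 367 alternative values of 16 named changes, 329 kept the direction and the side of the threshold, 38 kept the direction and lost the call, and 0 reversed. These totals are a description, since the 16 were chosen because they passed in the same data. Some settings also left out a library of the group not compared. At the 0.01 threshold every alternative kept the calls of *Wnt5a*, *Wnt2*, *Sfrp1* and *Sfrp4* in both comparisons with DHT, of *Wnt11* against orchiectomy (log2 fold change from -1.51 to -0.74) and of *Rspo3* against control. The adjusted threshold, applied to the counts of called members, left none of the calls against control. *Fzd6* against control lost its call in 15 of 23 alternatives, *Wnt10b* in 7 of 23 against control and 4 against orchiectomy, and *Rspo1* in 4 and *Fzd6* in 3 against orchiectomy. *Wnt4* after orchiectomy lost it in 5 of 22, with the groups compared alone, with the replicate block (log2 fold change 1.65), without control replicate 3 and without orchiectomized replicate 2 with or without replicate 4, which brought it as low as 0.58, and DESeq2 gave it no P value.

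Called members after orchiectomy numbered 1, and 2 with all genes of at least 1 count, 0 with only the groups compared, 0 at the adjusted threshold and 0 to 3 when 1 library was left out (0 without control replicate 3 or orchiectomized replicate 2, 3 without control replicate 4, 2 without control replicate 5). For DHT against orchiectomy the count was 8, with 5 at the adjusted threshold and 6 to 11 with 1 library left out. It was 12 with all genes of at least 1 count, among them *Wnt7b*, *Wnt7a* and *Fzd10*. Orchiectomized replicate 2 held 166 of the 199 counts of *Wnt7b* and 45 of the 52 of *Wnt7a*. *Wnt7b* was also the added call after orchiectomy in that fit. For DHT against control the count was 7, with 0 at the adjusted threshold and 5 to 9 with 1 library left out. Leaving out orchiectomized replicates 2 and 4 together, chosen after seeing the data, gave 1, 8 and 9. The replicate block gave 0, 8 and 6. With the main settings 3.23%, 9.79% and 3.54% of all genes were called in the 3 comparisons. Such shares were not computed for each alternative, so these counts are a description. Replicate numbers were not treated as pairs in the main fit. Same-numbered libraries had correlated deviations (r over 0.1) in 4 of 15 pairs, and the same number correlated best in 4 of 30 cases. Such correlations cannot show whether mice of the same number were paired or handled together. Of all genes called with DHT against orchiectomy 75.1% were lower, 86.7% with library totals alone and 62.5% with DESeq2; of those called after orchiectomy 34.7% were lower, 23.6% with library totals and 50.3% with DESeq2. Of the 44 members 12 were below the count filter.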
